A study of Mus musculus with 6 samples.

Results

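Messenger RNA of 10 genes that build elastic fibres or hold latent TGF-beta in the matrix was compared between wild-type C2C12 cells, a mouse myoblast line, and C2C12 cells labelled Gmppb-KO. The members were taken by gene name from the 54532 named genes of the deposited count table, and each of the 10 had a row: Eln, Fbn1, Fbn2, Mfap2, Mfap4, Mfap5, Ltbp1, Ltbp2, Ltbp3 and Ltbp4. Per the labels, exons 1 and 5 of Gmppb, which encodes an enzyme that makes GDP-mannose, were targeted by CRISPR/Cas9 plasmids, after which cells were selected with 4 µg per ml of puromycin and grown up as monoclonal cells. Cells of either genotype were lysed after 2 days of culture. How many clones the 3 Gmppb-KO libraries represent is not stated, and puromycin selection is given for the Gmppb-KO cells only. Effects of the clone, of the plasmids and selection, and of the genotype therefore cannot be told apart. It is also not stated that the 3 replicates of a genotype were separate cultures, and p-values therefore measure the spread of these samples alone, which can be technical.

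Elastic fibres consist of a core of elastin on a scaffold of microfibrils. Fibrillins are the long rods of the microfibril, and small glycoproteins such as those of Mfap2 and Mfap5 (also called MAGP-1 and MAGP-2) attach to them. Latent TGF-beta binding proteins (LTBPs) resemble fibrillins in domain structure; most of them bind the latent TGF-beta complex covalently and tether it to the matrix, while LTBP-2 does not. In skeletal muscle these proteins lie in the connective tissue around the fibres, and they are made by fibroblasts as well as by muscle cells.

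Each library held between 16011021 and 18566759 counts in named genes. Levels are counts relative to the library size in edgeR's usual unit (CPM), scaled by the trimmed mean of M values and listed per library in the order of replicates 1, 2 and 3. The test was edgeR's quasi-likelihood test with Benjamini-Hochberg adjustment over 12786 tested genes and a threshold of 0.05. Gmppb itself had 18.0, 20.9 and 23.9 CPM in the wild-type libraries, against 20.6, 16 and 13.0 CPM in those of Gmppb-KO cells. The ranges overlapped (log2 fold change -0.34 ± 0.26 SE, edgeR adjusted p = 0.459), so the count of the targeted gene did not check the labels. Of 7 myoblast markers, edgeR called 4 lower in Gmppb-KO libraries, among them Myod1, and 0 higher, where it called 3.27% of all tested genes lower. Myf5 lay the other way and was not called (23.0 ± 8.86 CPM in wild-type against 57.1 ± 33.1 in Gmppb-KO libraries, edgeR adjusted p = 0.168). Cdh15 and Des lay lower without a call, with Des at 4246 ± 934 against 3166 ± 1068 CPM (SD, n = 3). Of 8 fibroblast markers 4 were tested, and of these Dcn was called higher and Pdgfrb lower. Lum was at 0 counts in all libraries, Thy1 had 1 count, and Pi16 and Dpt had 16 and 2 counts over the wild-type libraries and 8 and 4 over those of Gmppb-KO cells. The summed level of the 8 was 614 to 879 CPM in wild-type libraries against 966 to 1569 CPM in those of Gmppb-KO cells, and most of it was Col3a1, a collagen gene that was not called (520 to 762 against 897 to 1467 CPM, edgeR adjusted p = 0.170). Of the markers of other cell types, Krt14 of epithelia was called higher (4.23-fold, edgeR adjusted p = 0.0362) while Epcam was at 0 counts. Cdh1, also of epithelia, lay the other way but was not tested. All of its 29 counts came from the wild-type libraries. Fabp4 of adipocytes had 0 counts in wild-type and 54 in Gmppb-KO libraries while Adipoq and Plin1 were at 0. In bulk samples, a change in the share of expressing cells and a change in messenger RNA per cell cannot be told apart.

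Among the structural genes, Gmppb-KO libraries held more Fbn1 and Mfap5 messenger RNA, and among the LTBPs less Ltbp2. The low-count filter passed 6 of the 10 members, and 2 of these were called higher and 1 lower, where edgeR called 5.59% of all tested genes, 2.32% higher and 3.27% lower. The members were chosen with earlier results of these data known, so counts over them are not independent evidence about the set. DESeq2 and limma voom, which called 10.5% and 5.53% of the tested genes, called the same 3 members. The other 3 tested members, Ltbp1, Ltbp3 and Ltbp4, did not pass the test. Of the 4 members that the filter left out, Fbn2 and Mfap4 had 0 counts in every library, and Eln and Mfap2 had too few counts for the test. In 4 of the 6 tested members the 3 wild-type and 3 Gmppb-KO values did not overlap, which was so for 26.1% of all tested genes.

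**Figure D1:**
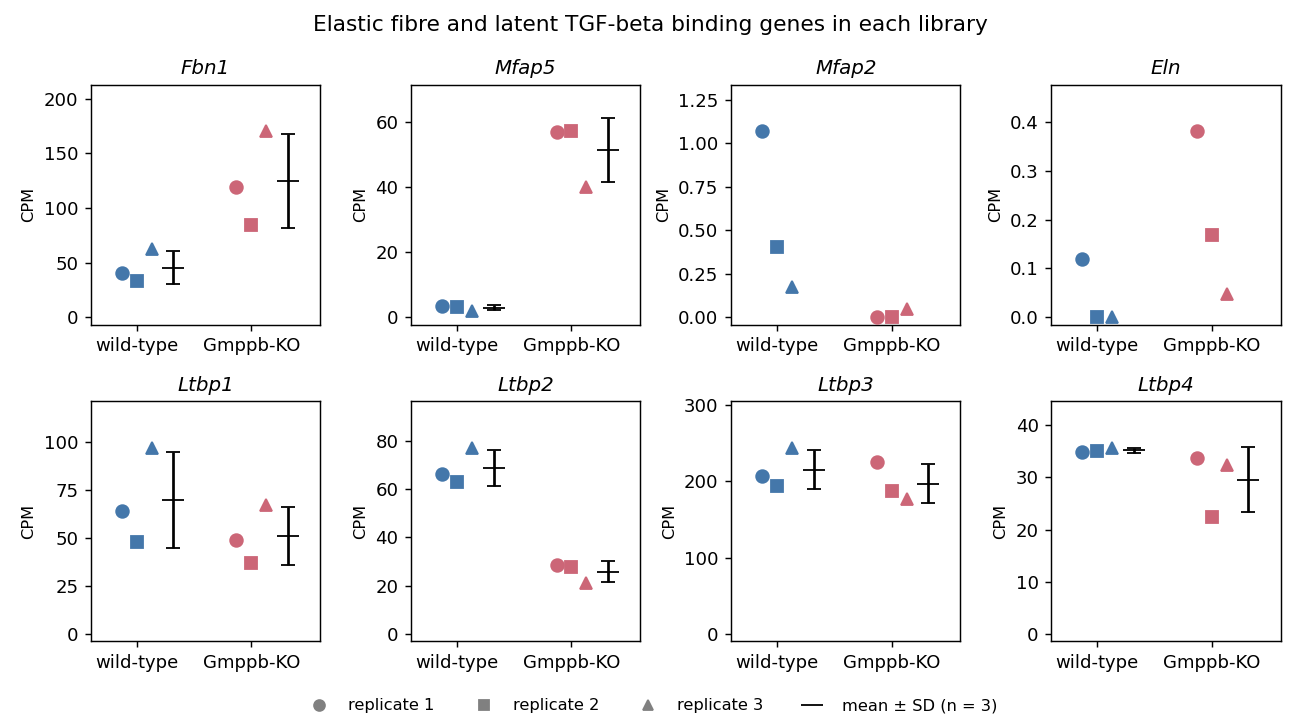
Level of 8 members in CPM (y axis, linear, a separate scale for each gene) in 3 wild-type and 3 Gmppb-KO libraries, with a symbol for each replicate and, for the 6 tested members, the mean ± SD (n = 3). Fbn1 and Mfap5 lie higher and Ltbp2 lower in all 3 Gmppb-KO libraries, while Ltbp1 and Ltbp3 overlap between the groups; Fbn2 and Mfap4, at 0 counts everywhere, are not drawn.

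Mfap5 (ENSMUSG00000030116, mm10 chr6:122505845-122529290), which encodes a microfibril glycoprotein that binds fibrillins, had the largest change among the tested members. Its level was 3.56, 3.30 and 1.99 CPM in the wild-type libraries, against 56.8, 57.1 and 40.1 CPM in those of Gmppb-KO cells. Every Gmppb-KO library lay far above every wild-type library, and Gmppb-KO replicate 3 was the lowest of its group. The means of 2.95 ± 0.844 and 51.3 ± 9.73 CPM (SD, n = 3) differ 17.4-fold (log2 fold change 4.12 ± 0.32, edgeR adjusted p = 0.000371). The call held under all 16 alternatives, with log2 fold changes from 3.01 to 4.29. Mfap5 is also used as a marker of fibroblasts. Beside its rise, 1 of the 8 fibroblast markers given above was called higher and 1 lower, with only 4 of the 8 tested. The sum of the 8 moved mainly with Col3a1, and the part of other cells in the result was not tested.

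Its paralogue Mfap2, the other glycoprotein of this type, was at the edge of detection and lay the other way. There were 18, 6 and 3 counts in the wild-type libraries, against 0, 0 and 1 in those of Gmppb-KO cells. Pooled, 27 counts against 1 give a level 31.8 times lower in Gmppb-KO libraries, with an exact 95% binomial interval from 5.24 to 1303 that covers counting error only. With no low-count filter edgeR called Mfap2 lower (log2 fold change -4.60 ± 1.40, adjusted p = 0.0341). This setting called 1419 of 21251 genes and gave smaller adjusted p-values than the main fit for other members, such as 0.000564 in place of 0.0393 for Fbn1. Per kilobase of gene length, Mfap5 made up 52.9%, 73.4% and 79.3% of the messenger RNA of this pair in wild-type replicates 1, 2 and 3 and between 99.7% and 100% in the Gmppb-KO libraries. Summed over both genes the level was 1.28 ± 0.588 CPM per kilobase in wild-type and 14.3 ± 2.69 in Gmppb-KO libraries (SD, n = 3). The within-library log2 ratio of Mfap5 to Mfap2 was 7.74 higher in Gmppb-KO libraries, without overlap (exact permutation test over libraries, 2-sided, p = 0.1, the smallest that 3 against 3 allows; 0.15 adjusted over the 6 ratios computed). That difference was 6.34 with 2 counts in place of 0.5 added to each gene, since Mfap2 is near 0.

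Fbn1 (ENSMUSG00000027204, mm10 chr2:125300594-125507993), which encodes the main fibrillin of microfibrils, was higher by a smaller factor. It had 40.5, 33.1 and 62.7 CPM in the wild-type libraries, against 119, 84.7 and 170 CPM in those of Gmppb-KO cells. The groups did not overlap, although values within each group spread widely, with replicate 2 lowest and replicate 3 highest in both. The means were 45.4 ± 15.4 and 124.6 ± 43.0 CPM (SD, n = 3), a 2.74-fold difference (log2 fold change 1.46 ± 0.33, edgeR adjusted p = 0.0393). This call is close to the threshold. It was lost with total count scaling (adjusted p = 0.0887), with limma on log2(FPKM + 1) (0.0566), and without wild-type replicate 1 (0.188), wild-type replicate 2 (0.146), Gmppb-KO replicate 1 (0.0678) or Gmppb-KO replicate 3 (0.0663). The log2 fold change stayed between 1.12 and 1.67 under the alternatives.

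Fbn1 is a long gene of 12128 bases, and long genes as a class moved with the libraries. Across the 2097 tested genes of at least 8000 bases, a length chosen after seeing the data, the median log2 deviation from the group mean was -0.01, -0.22 and 0.23 for the wild-type libraries, against -0.26, -0.21 and 0.56 for those of Gmppb-KO cells. Replicate 3 was thus highest in both groups, as for Fbn1, while the lowest Gmppb-KO library was replicate 1 for long genes and replicate 2 for Fbn1. Their median log2 fold change was 0.39, against 0.11 for all tested genes. With each library's trend with gene length removed, Fbn1 had a log2 fold change of 1.16 and an adjusted p of 0.0119. An antisense gene, Gm9913, shares 20.1% of the Fbn1 exon bases and had 0 counts. The paralogue of Fbn1, Fbn2, a fibrillin known mostly from development, had 0 counts in all 6 libraries. Taking 3 counts over a group as the limit that 0 allows, Fbn1 was per kilobase at least 639-fold above Fbn2 in wild-type and at least 2064-fold above it in Gmppb-KO libraries.

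Neither genotype held a substantial level of the messenger RNA of elastin, the core protein of the fibre. Eln had 2, 0 and 0 counts in the wild-type libraries, against 7, 3 and 1 in those of Gmppb-KO cells. The values overlap, and 2 pooled counts against 11 give a ratio of 4.67 with an exact 95% binomial interval from 1.02 to 43.3 for counting error only. With no low-count filter edgeR did not call it (log2 fold change 2.05 ± 1.61, adjusted p = 0.545). Mfap4, a microfibril-associated protein that binds elastin and collagen, had 0 counts everywhere, which allows up to 0.0615 CPM for the wild-type group and 0.0522 CPM for the Gmppb-KO group at 3 counts over the group.

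Ltbp2 (ENSMUSG00000002020, mm10 chr12:84783212-84876532) fell, and it was the LTBP gene that passed the test. Its level was 66.2, 62.9 and 77.1 CPM in the wild-type libraries, against 28.6, 27.8 and 20.9 CPM in those of Gmppb-KO cells. All Gmppb-KO values lay below all wild-type values, and the spread within a group was small against the gap between them. The means of 68.7 ± 7.41 and 25.8 ± 4.22 CPM (SD, n = 3) give a level lower by a factor of 2.67 (log2 fold change -1.41 ± 0.21, edgeR adjusted p = 0.00639). All 16 alternatives kept the call, with log2 fold changes from -1.57 to -1.23.

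The promoter of Ltbp2 is shown because an antisense transcript runs through it and had fewer counts in Gmppb-KO libraries. In GENCODE M21 the exons of D030025P21Rik, on the plus strand at chr12:84875769-84879755, cover 764 of the 8184 exon bases of Ltbp2 (9.34%). This antisense gene, named after its values were seen, had 24, 39 and 31 counts in the wild-type libraries, against 2, 0 and 0 in those of Gmppb-KO cells. Pooled, this is a ratio of 55.4 with an exact 95% binomial interval from 14.9 to 464 for counting error only, given as a description, since the gene was picked for these counts and passed the low-count filter through the wild-type libraries alone. The strand setting of the counting is not given in the sources used here, and without it reads from the overlap cannot be told apart. Its 94 wild-type counts compare with 3366 for Ltbp2. All of the following 209 bases, upstream of the annotated Ltbp2 exons at chr12:84876533-84876741 (RefSeq, GRCm38.p6, minus strand, 5′ to 3′), lie inside the antisense exons.

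Ltbp2 promoter: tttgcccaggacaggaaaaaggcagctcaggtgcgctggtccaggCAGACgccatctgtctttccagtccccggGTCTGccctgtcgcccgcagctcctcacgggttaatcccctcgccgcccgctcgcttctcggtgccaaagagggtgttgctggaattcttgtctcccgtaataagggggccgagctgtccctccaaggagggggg

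Capitals mark CAGAC, a motif that contains the core bound by Smads, or its reverse complement. It occurs at 205 and 176 bases before the RefSeq start. The motif was found on either strand in 42.2% of 32851 promoter windows of 250 bases, so a match is common. Windows of Ltbp1 (1 and 2 matches) and Ltbp3 (1), which were not called, also held it. Of the Mfap2 windows, 1 held it, and those of Fbn1 and Ltbp4 had 0 matches. The other motifs searched on both strands were CAGCTG, a sequence that Myod1 binds (in 13.0% of windows), TGANTCA, bound by AP-1 (6.75%), and GGAATG, bound by TEAD factors (12.6%), and these letters do not occur in the 250 bases before the Ltbp2 start. Windows were matched for 6 of the 10 members in the promoter table used here, and Eln, Fbn2, Mfap4 and Mfap5 were not matched.

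**Figure D2:**
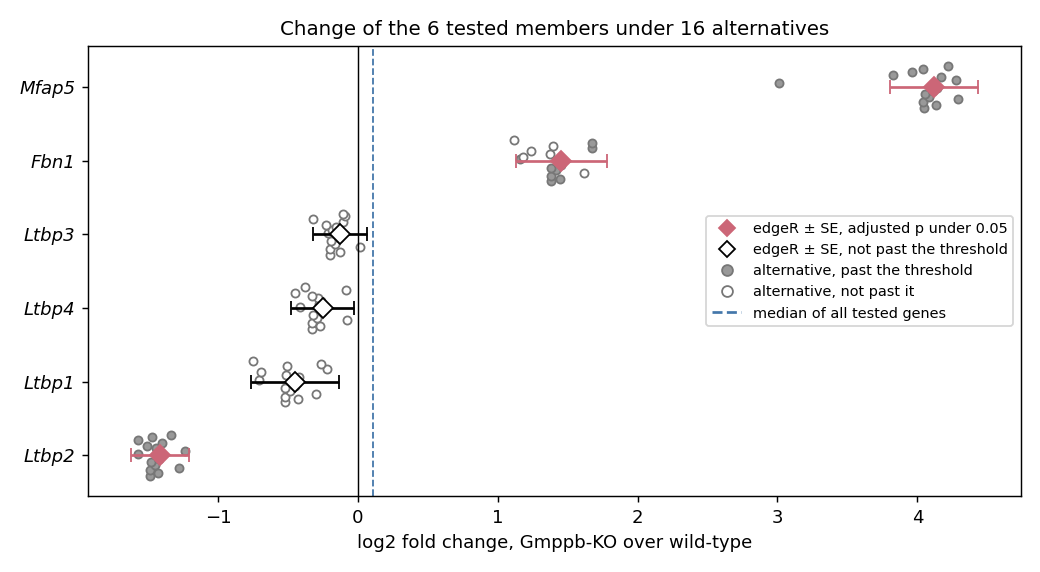
Log2 fold change of Gmppb-KO over wild-type (x axis) for the 6 tested members, with the edgeR value ± SE as a diamond and 16 alternative settings as circles, filled where the adjusted p was under 0.05. Mfap5 and Ltbp2 keep filled circles throughout, Fbn1 has 6 open circles, and Ltbp1, Ltbp3 and Ltbp4 have open circles only.

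The LTBPs that carry latent TGF-beta did not pass the test. Ltbp3, by level the main LTBP gene of these cells, had 207, 195 and 244 CPM in the wild-type libraries, against 226, 188 and 177 CPM in those of Gmppb-KO cells, so the groups overlapped. Its log2 fold change was -0.13 ± 0.20 (edgeR adjusted p = 0.708), with a 95% interval, a normal approximation from the SE that is likely too narrow at n = 3, from -0.51 to 0.26; under total count scaling the value was 0.01. Ltbp1, the first described carrier of latent TGF-beta, had 63.8, 48.0 and 96.8 CPM in the wild-type libraries, against 48.7, 36.9 and 67.1 CPM in those of Gmppb-KO cells. As for Fbn1, replicate 2 was lowest and replicate 3 highest in both groups, and the groups overlapped (log2 fold change -0.45 ± 0.32, interval -1.07 to 0.17, edgeR adjusted p = 0.425). Ltbp4, whose protein also takes part in elastic fibre assembly, had 34.8, 35.1 and 35.7 CPM in the wild-type libraries, against 33.8, 22.4 and 32.5 CPM in those of Gmppb-KO cells. Its Gmppb-KO values all lay below the wild-type values, 2 of them by little, and the change was not called (log2 fold change -0.25 ± 0.22, interval -0.69 to 0.18, edgeR adjusted p = 0.516).

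Levels per kilobase of deposited gene length set the members in order. In wild-type libraries Ltbp3 led with 41.5 ± 4.94 CPM per kilobase, followed by Ltbp2 (8.39 ± 0.906), Ltbp1 (6.63 ± 2.37), Ltbp4 (5.45 ± 0.0652), Fbn1 (3.75 ± 1.27), Mfap5 (0.822 ± 0.235), Mfap2 (0.454 ± 0.383) and Eln (0.00489 ± 0.00846; SD, n = 3 for each). Single-library values of Ltbp1 overlapped those of Ltbp2, Ltbp4 and Fbn1, and those of Mfap5 and Mfap2 overlapped each other. In Gmppb-KO libraries Ltbp3 again led (38.0 ± 4.87 CPM per kilobase), now followed by Mfap5 (14.3 ± 2.71) and Fbn1 (10.3 ± 3.55), which overlapped, then by Ltbp1 (4.86 ± 1.45), Ltbp4 (4.57 ± 0.966) and Ltbp2 (3.15 ± 0.516), of which neighbours overlapped. The deposited length of Ltbp3, 5190 bases, is shorter than its 9069 exon bases in GENCODE M21. With the latter its level was 23.7 ± 2.83 CPM per kilobase in wild-type and 21.7 ± 2.79 in Gmppb-KO libraries, still above the other members.

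**Figure D3:**
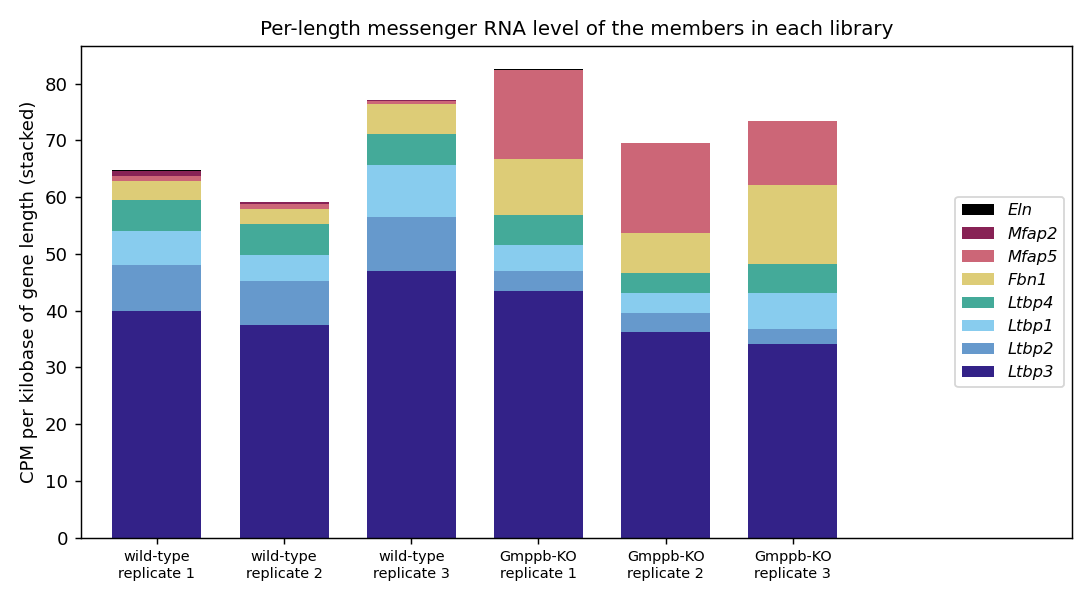
Stacked messenger RNA level of the members in each library, in CPM per kilobase of deposited gene length (y axis, from 0). Mfap5 and Fbn1 take up a larger part of each Gmppb-KO bar and Ltbp2 a smaller part, while Ltbp3 is the tallest block in all 6 libraries.

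Set against each other within a library, the shares of Ltbp2 and Ltbp3 did not overlap between the genotypes, in a design too small for the exact test to pass. Per kilobase, Ltbp2 held 13.6%, 13.9% and 13.2% of the LTBP messenger RNA in the wild-type libraries, against 6.15%, 7.29% and 5.31% in those of Gmppb-KO cells. Ltbp3 held 67.0 ± 0.947% in wild-type and 75.1 ± 3.59% in Gmppb-KO libraries, also without overlap. The shares of a library add up to the whole, so a lower share of Ltbp2 raises those of the others, and the differences are not independent. The level of Ltbp3 itself overlapped between the groups (log2 fold change -0.13 ± 0.20). With GENCODE M21 lengths the shares were 19.1 ± 0.584% and 9.25 ± 1.65% for Ltbp2 and 53.9 ± 1.03% and 63.5 ± 4.37% for Ltbp3, so their size depends on the length used for Ltbp3. The shares of Ltbp1 (10.5 ± 2.35% and 9.67 ± 3.15%) and Ltbp4 (8.89 ± 1.06% and 9.02 ± 1.51%) overlapped. On the log2 scale the share of Ltbp2 was lower by a difference of -1.13 and that of Ltbp3 higher by 0.16 (exact permutation test, 2-sided, p = 0.1 for each, the smallest possible, 0.15 adjusted over 6 ratios), and for Ltbp1 and Ltbp4 p was 0.7 and 0.9 in the same exact test. The summed LTBP level was 62.0 ± 8.27 CPM per kilobase in wild-type and 50.5 ± 5.50 in Gmppb-KO libraries (SD, n = 3).

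Among other genes that assemble, crosslink or degrade elastic fibres, edgeR called Fbln2 and Mmp2. Of 12 tested assembly genes, edgeR called 1 higher and 0 lower, and DESeq2 and limma voom each called 2 higher and 0 lower. Over all tested genes edgeR called 5.59%, DESeq2 10.5% and limma voom 5.53%, and with so few genes per list these counts set no list apart. An unadjusted edgeR p under 0.05 was found for 2 of the 12, against 20.1% of all tested genes. The median log2 fold change of the 12 was 0.10, against 0.11 over all tested genes. Fbln2, a fibulin that binds fibrillin and elastin, rose from 118, 87.4 and 119 CPM to 384, 309 and 440 CPM in replicates 1, 2 and 3. The groups were far apart (3.49-fold, log2 fold change 1.80 ± 0.23, edgeR adjusted p = 0.00328). The other gene that DESeq2 and limma voom called was Thsd4 (also called Adamtsl6), whose product promotes fibrillin microfibrils and which is named after its values were seen. It rests on 0, 2 and 9 counts in the wild-type libraries, against 26, 41 and 63 in those of Gmppb-KO cells, and passed the low-count filter through the latter alone, so its calls support nothing here. Of the 5 lysyl oxidase genes, whose products crosslink elastin and collagen, 0 were called by edgeR and likewise by DESeq2 and limma voom, and 1 had an unadjusted edgeR p under 0.05. Loxl1, the family member most tied to elastin, had 220 ± 11.4 and 309 ± 49.5 CPM (log2 fold change 0.49 ± 0.20, edgeR adjusted p = 0.223), and Loxl4 had 6.22 ± 0.725 and 4.15 ± 1.11 CPM (-0.58 ± 0.33, edgeR adjusted p = 0.341). Among 8 proteases that can degrade elastic fibre proteins only 3 were tested. Mmp2, a gelatinase, was called higher, with 83.0, 76.8 and 116 CPM in the wild-type libraries, against 375, 296 and 358 CPM in those of Gmppb-KO cells. This is 3.73-fold, without overlap (log2 fold change 1.90 ± 0.23, edgeR adjusted p = 0.00280).

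The TGF-beta ligands, whose latent complexes LTBPs other than LTBP-2 bind, did not pass edgeR's test. Of 15 tested genes of latent TGF-beta and its activation, 0 were called by edgeR or limma voom, and DESeq2 called 1 higher and 2 lower. Over all tested genes edgeR called 5.59%, limma voom 5.53% and DESeq2 10.5%, so few calls would be met among 15 genes in any case. An unadjusted edgeR p under 0.05 was found for 3 of the 15, against 20.1% of all tested genes. Tgfb1 had 223, 284 and 144 CPM in the wild-type libraries, against 118, 111 and 70.8 CPM in those of Gmppb-KO cells. These values did not overlap, with wild-type replicate 3 nearest to the other group (log2 fold change -1.11 ± 0.30, edgeR adjusted p = 0.0808, DESeq2 adjusted p = 0.0112). Tgfb2 lay the other way, with 5.99, 4.65 and 7.19 CPM in the wild-type libraries, against 10.2, 12.7 and 24.4 CPM in those of Gmppb-KO cells (log2 fold change 1.41 ± 0.39, edgeR adjusted p = 0.0846, DESeq2 adjusted p = 0.0116). Its Gmppb-KO values all lay above the wild-type values, with replicate 3 highest.

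Downstream genes were mixed. Of 11 tested receptors and Smads, edgeR and limma voom called 0 and DESeq2 1 higher, with 2 at an unadjusted edgeR p under 0.05, where the share over all tested genes was 20.1%, and a median log2 fold change of 0.46. The inhibitory Smads had the smallest p-values: Smad6 had 6.79 ± 0.921 and 13.3 ± 2.91 CPM (log2 fold change 0.97 ± 0.29, edgeR adjusted p = 0.110) and Smad7 had 9.51 ± 1.67 and 15.3 ± 3.24 CPM (0.68 ± 0.28, edgeR adjusted p = 0.229). Of 13 tested genes that TGF-beta is known to regulate, edgeR and limma voom called 3 higher and 1 lower and DESeq2 5 higher and 1 lower. There were 7 at an unadjusted edgeR p under 0.05, and the median log2 fold change was 0.68. Over all tested genes edgeR called 5.59%, limma voom 5.53% and DESeq2 10.5%. An unadjusted edgeR p under 0.05 was reached by 20.1% of them, and their median log2 fold change was 0.11. The list was drawn up with the rises of Ctgf, Col1a1 and Postn in these data already known, so its count is not independent evidence of a direction. Ctgf, a matricellular protein gene, rose 10.8-fold, Col1a1, a chain of type I collagen, 9.59-fold and Postn, which encodes periostin, 29.7-fold (edgeR adjusted p = 0.000359, 0.000577 and 0.00268). The Gmppb-KO values of Postn spread from 42.7 and 68.5 to 196 CPM, and without the highest, replicate 3, its log2 fold change was 3.96 in place of 4.89. The lower gene was Junb, an AP-1 subunit (log2 fold change -0.81 ± 0.19, edgeR adjusted p = 0.0424), and is named after its values were seen. The Junb call was lost with total count scaling, with length trends removed and when any library other than Gmppb-KO replicate 3 was left out, with adjusted p-values up to 0.221. Of the BMP and GDF ligands, whose prodomains bind fibrillins, 2 of 7 were tested, 0 were called by edgeR and likewise by DESeq2 and limma voom, and 0 had an unadjusted edgeR p under 0.05. Gdf11 and Bmp4 had log2 fold changes of 0.05 ± 0.21 and 0.07 ± 0.35 under edgeR, and both were below 0 under median-of-ratios scaling.

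**Figure D4:**
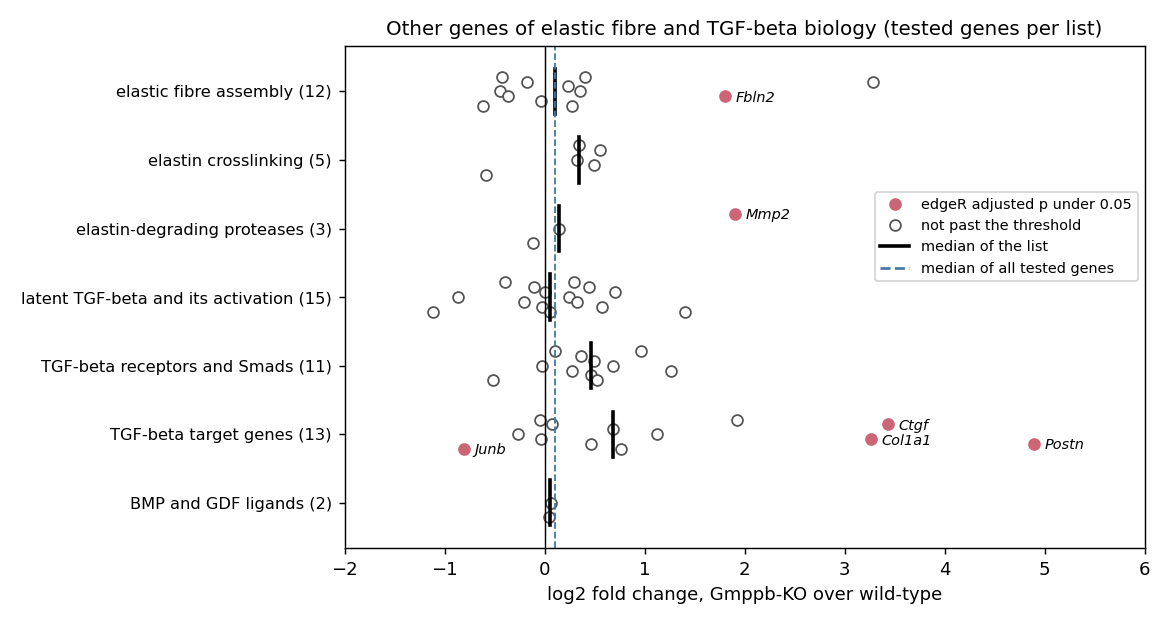
Log2 fold change of Gmppb-KO over wild-type (x axis) for each tested gene of 7 lists around the members, with the number tested in brackets, filled points for genes past the edgeR threshold and a black bar at each list's median. Over the lists 5 genes are called higher and 1 lower of 59 different genes tested, where edgeR called 5.59% of all tested genes. List medians run from 0.05 to 0.68, with the median of all tested genes, 0.11, as a dashed line.

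Genes whose levels moved most like the called members were found by the root mean square distance of log2 CPM, centred on the wild-type mean, over the 6 libraries. Before the log, 2 counts were added to each gene, which shrinks changes of genes with few counts. Nearest to Fbn1 were Mppe1, Svep1 and Heg1 (distances 0.15, 0.15 and 0.17). Heg1, which encodes a large membrane protein, had 37.0, 30.8 and 56.9 CPM in the wild-type libraries, against 85.3, 69.4 and 143 CPM in those of Gmppb-KO cells, again lowest in replicate 2 and highest in replicate 3 of each group. Nearest to Ltbp2 were Fhod3, H2-T23 and Cdkn1a (0.11, 0.12 and 0.12), and H2-T23 belongs to a family of similar genes among which reads can be split. Nearest to Mfap5 were 2610316D01Rik, AI662270 and S100g (0.23, 0.25 and 0.31), all of them low in wild-type libraries, with S100g at 1 count there. They had 0 to 6 counts per wild-type library and passed the low-count filter through the Gmppb-KO libraries alone, so their likeness is a description only. By edgeR, S100g had a log2 fold change of 6.17, against 4.12 for Mfap5, a gap that the added counts shrink. With 2 groups of 3 libraries, many genes with a like fold change lie at a short distance.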

How the data were processed

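The members and gene lists were chosen with earlier results of these data known. The authors deposited 1 table with read counts per gene, whole numbers that were not normalized, per the file headers; the build mm10 and the tools HISAT2, featureCounts of Subread, DESeq2 and FastQC are named in the submitters' processing notes. The authors' FPKM columns, per the file headers, were used only in an alternative. The authors' normalized mean signal per group, log2 fold changes and p-values are in the deposited table and are not used here. A set of 201 loci without a gene name, 0.0699% to 0.195% of a library's counts, was left out.

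Counts were fitted with edgeR 4.0.16 in R 4.3.3 (TMM, filterByExpr, quasi-likelihood F test, 2-sided, group as the only term); the SE was taken from the F statistic. The steps were tested on simulated counts. Alternatives were DESeq2 1.42.0, limma 3.58.1 (voom, and log2(FPKM + 1)), 3 scalings, 2 filters, a replicate block, removal of trends with gene length, and leaving out each library. Ratios used 0.5 added counts and GENCODE M21 lengths as an alternative added after seeing the data. Named were the 10 members; per list the up to 3 called genes with the smallest adjusted p, or 2 by unadjusted p where none was called; for 3 members the 3 nearest genes; and Gmppb. Intervals and limits from counts cover counting error only. No set test was run.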

Additional observations from a re-analysis of the deposited data

How the results depend on the processing

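Mfap5 and Ltbp2 kept their calls under all 16 alternatives; Fbn1 did not. The members called higher numbered 1 in place of 2 with total count scaling and with limma on log2(FPKM + 1), where Fbn1 was lost, and 1 to 2 when a library was left out; those called lower numbered 2 with no low-count filter, which lets Mfap2 in, and 1 with every library left out in turn. Over the pathway lists, 5 genes were called higher and 1 lower. DESeq2 called 10 and 3, no low-count filter 9 and 2, a replicate block 9 and 2, and removal of length trends 8 higher. Total count scaling left 0 lower, and leaving out a library gave 5 to 6 higher and 0 to 1 lower. Calls over all genes moved too, from 715 in the main fit to 1343 with DESeq2 and 1419 of 21251 with no filter. They numbered 1618 with a replicate block, 1011 with length trends removed, 567 with total count scaling and 331 to 749 with a library left out. The list counts are therefore not changes particular to these lists. Apart from changes that follow from the samples or genes left out, the cause was not tested. Ltbp3 turned to 0.0145 under total count scaling, where the median log2 fold change of all tested genes was 0.27 in place of 0.11. Bmp4 turned to -0.01 with DESeq2, median-of-ratios scaling and no filter (-0.0118, -0.0135 and -0.00786), to -0.0162 with limma on log2(FPKM + 1) and to -0.25 without Gmppb-KO replicate 3 (up to 0.24 without others). Gdf11 turned to -0.0309, -0.0310, -0.0249 and -0.0239 in the same 4 settings, to -0.0587 without wild-type replicate 2 and to -0.16 without Gmppb-KO replicate 3 (up to 0.12 without others).

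With a library left out, the difference in log2 ratio ran from 7.28 to 8.37 for Mfap5 over Mfap2 and, as shares of the LTBPs, from -0.39 to 0.0227 for Ltbp1, from -1.25 to -1.02 for Ltbp2, from 0.14 to 0.20 for Ltbp3 and from -0.10 to 0.15 for Ltbp4, so the small differences of Ltbp1 and Ltbp4 change sign. Replicate numbers are not stated to pair cultures. The deviations of same-numbered libraries from their group means correlated at -0.18, 0.51 and 0.42 across genes for replicates 1, 2 and 3. Between libraries of different number the values ran from -0.55 (wild-type 3, Gmppb-KO 2) to 0.29 (wild-type 2, Gmppb-KO 1). Replicates 2 and 3 thus correlated most with the same number, and replicate 1 did not. The numbers were not taken as pairs in the main fit because pairing is not stated, and an effect shared by a replicate number was not tested. A replicate block gave 1618 called genes in place of 715, kept the member calls (Fbn1 adjusted p = 0.00173) and also called Tgfb1 and Tgfb2. Depth limits Eln and Mfap2, which rest on 13 and 28 counts in all libraries together.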
